A study of Mus musculus with 4 samples.

Results

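The thyroid hormone receptors, their retinoid X receptor partners and a set of their cofactors were followed through the cell types of the adult mouse hypothalamus. They are 8 genes, taken as a named list out of 32285 genes in the count matrices: the receptors Thra and Thrb, the partners Rxra, Rxrb and Rxrg, the corepressor Ncor1 and the coactivators Ncoa1 and Ncoa2. Nuclei came from adult male mice on the C57/BL6NCr background, either wild type (WT) or TRα1+m, which carry the R384C exchange in TRα1 on 1 allele from the germ line on and keep a normal second allele, so that the receptor made from the mutant allele binds its hormone less tightly while that from the other allele is normal. Snap-frozen hypothalami of 3 mice were combined before capture for each library, and there were 4 libraries, with a WT and a TRα1+m library in each of 2 independent repeats (n = 2 libraries per genotype). Because each pool enters as a single library, the tests measure the spread between pools and not between mice.

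Thyroid hormone receptors are nuclear receptors that sit on DNA mostly as heterodimers with a retinoid X receptor (RXR). Without the hormone T3 they recruit corepressors such as NCOR1, which bring histone deacetylases to the target gene, and with T3 they exchange these for coactivators of the p160 family such as NCOA1 and NCOA2. Thra also yields TRα2, a splice form that does not bind T3, and Thrb is known for the feedback of thyroid hormone on the hypothalamus and pituitary.

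The exchange that distinguishes the genotypes lies in the hormone-binding part of the receptor. In the GENCODE vM21 models of the build GRCm38, which is the build of the count matrices, the TRα1 transcript of Thra encodes 410 residues and the TRα2 transcript 492, and they share the first 370. R384C therefore falls in the stretch that TRα1 does not share with TRα2. The reference coding sequence around this codon is shown with the matching stretch of Thrb, because the same arginine codon occurs in both receptors; the codon is in capitals.
Thra, plus strand, chr11:98764433-98764462: tgccacgccagcCGCttcctccacatgaaa
Thrb, plus strand, chr14:18033580-18033609: tgccatgccagcCGCttcctccacatgaag
Both windows are coding sequence within a single exon, and 2 of their 30 bases differ. All 21 residues centred on this arginine were identical between the receptors. The amount of Thra transcript is no check of the genotype, since the mutant allele is transcribed too, and UMIs summed over the gene do not separate TRα1 from TRα2 or the mutant from the normal allele.

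Levels are given as CPM, the unique molecular identifiers (UMIs) of a gene after scaling the summed UMIs of all nuclei of that cell type in a library to a total of 1000000. Introns were counted, so long genes collect more UMIs and levels are compared between cell types and not between genes. Thra spans 28369 bases (chr11:98740638-98769006) and Thrb 377830 bases (chr14:17660261-18038090), and the others range from 6588 bases for Rxrb (chr17:34031812-34038399) to 234979 bases for Ncoa2 (chr1:13139105-13374083). The last 1075 bases of Thra overlap Nr1d1 on the other strand, and 90772 bases of Thrb overlap the antisense gene Gm48321; whether counting used strand is not given in the sources used here. The authors kept 56386 nuclei in 7 main clusters and 22 sub-clusters, with between 47260127 and 59112785 UMIs per library.

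The labels were checked against marker genes before use. Neurons_2 was left out of all tests because 852 of its nuclei came from TRα1+m replicate 2 and at most 6 from any other library, and the non-neuronal cluster held 34 to 80 nuclei per library. Among the neuronal sub-clusters, Agrp, Oxt, Pmch, Pomc and Sst were each highest in the sub-cluster named after them in all 4 libraries. For the other 3 of 8 label genes checked, this held in 0 of 4 libraries. Hcrt, which encodes orexin, averaged 69.6 CPM in the sub-cluster labelled Orexin+ and 827 CPM in Glutamatergic_2. Avp, which encodes vasopressin, averaged 3042 CPM in the sub-cluster labelled AVasopressin and 21429.9 CPM in the oxytocin sub-cluster, whose label also names AVP. Cartpt averaged 279 CPM in CART_1 and 496 CPM in POMC, whose label also names CART. These 3 sub-clusters are called here by their labels only. The MCH sub-cluster also held endothelial marker RNA, with 563 and 1729 CPM summed over 4 genes in the WT libraries and 1387 and 2629 CPM in the TRα1+m libraries, against a mean of at most 17.8 CPM in every other neuronal sub-cluster tested. Of the 56077 barcode sequences of kept nuclei, 309 occurred in more than 1 library.

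The 2 receptors were distributed differently over the main cell types. By CPM, Thra was highest in oligodendrocytes and lowest in neurons in all 4 libraries, whereas Thrb was highest in astrocytes and lowest in oligodendrocytes in all 4. Neuronal nuclei hold more UMIs, and per nucleus both receptors were highest in Neurons_1. Thra there was at 0.446 and 0.65 UMIs per nucleus in WT and 0.34 and 0.45 in TRα1+m. In oligodendrocytes it was at 0.402 and 0.545 in WT and 0.322 and 0.389 in TRα1+m. Thrb was at 0.939 to 1.28 UMIs per nucleus in Neurons_1 and at 0.66 to 0.956 in astrocytes. In oligodendrocytes, the myelinating glia, Thra reached 254 and 280.5 CPM in the WT libraries and 200.3 and 217 CPM in the TRα1+m libraries, a mean of 238 ± 36.1 (SD, n = 4 libraries). In Neurons_1, the cluster of nearly all neurons, it was 101 and 117 CPM in WT and 80.8 and 86.3 CPM in TRα1+m, or 96.1 ± 16.1 on average. No oligodendrocyte library came near the neuronal range, so the ranges did not overlap. The fitted log2 difference of neurons minus oligodendrocytes was -1.29 ± 0.08 (SE; adjusted p = 6.03e-13, edgeR quasi-likelihood test with the library as a block). The clusters were themselves made from these UMIs, so p-values between cell types and sub-clusters are not independent of the clustering. Microglia (161 ± 45.2 CPM), astrocytes (156 ± 27.2 CPM) and oligodendrocyte progenitors (OPC, 137 ± 23.1 CPM) lay between them. The spread among these 3 was not resolved, with log2 differences of 0.06 ± 0.08 for astrocytes minus OPC, 0.19 ± 0.09 for astrocytes minus microglia and 0.13 ± 0.09 for OPC minus microglia (adjusted p = 0.593, 0.0785 and 0.289).

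Thrb averaged 389.8 ± 30.1 CPM in astrocytes, 304 ± 24.3 CPM in OPC, 225 ± 6.95 CPM in Neurons_1, 134 ± 30.6 CPM in microglia and 46 ± 20.2 CPM in oligodendrocytes. Astrocyte libraries held 423 and 403 CPM in WT and 354 and 379.6 CPM in TRα1+m, and OPC libraries 332 and 305 CPM and 306 and 273 CPM. These were the only neighbours in the order that did not differ beyond their spread, with a log2 difference of 0.22 ± 0.13 (adjusted p = 0.205). From OPC to oligodendrocytes, the cells they give rise to, Thrb was lower by a log2 difference of -2.81 ± 0.15 (adjusted p = 4.75e-12) while Thra was higher by 0.77 ± 0.08 (adjusted p = 4.08e-08). Oligodendrocytes thus held 0.19 ± 0.06 UMIs of Thrb per UMI of Thra and OPC 2.27 ± 0.39, a count ratio that the unequal spans of the genes keep from being a ratio of transcripts. After thinning every nucleus to 900 UMIs, 27.8% ± 1.75 of astrocytes and 3.91% ± 1.66 of oligodendrocytes held a Thrb UMI, against 48.9% and 6.93% of whole nuclei. For Thra the thinned shares were 13.7% ± 2.05 and 19.4% ± 2.86, in the reverse order, against 27.2% and 32.8% of whole nuclei. In Neurons_1 the thinned shares were 8.95% ± 1.57 for Thra and 15.9% ± 0.38 for Thrb, against 36% and 47.7% of whole nuclei.

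**Figure D1:**
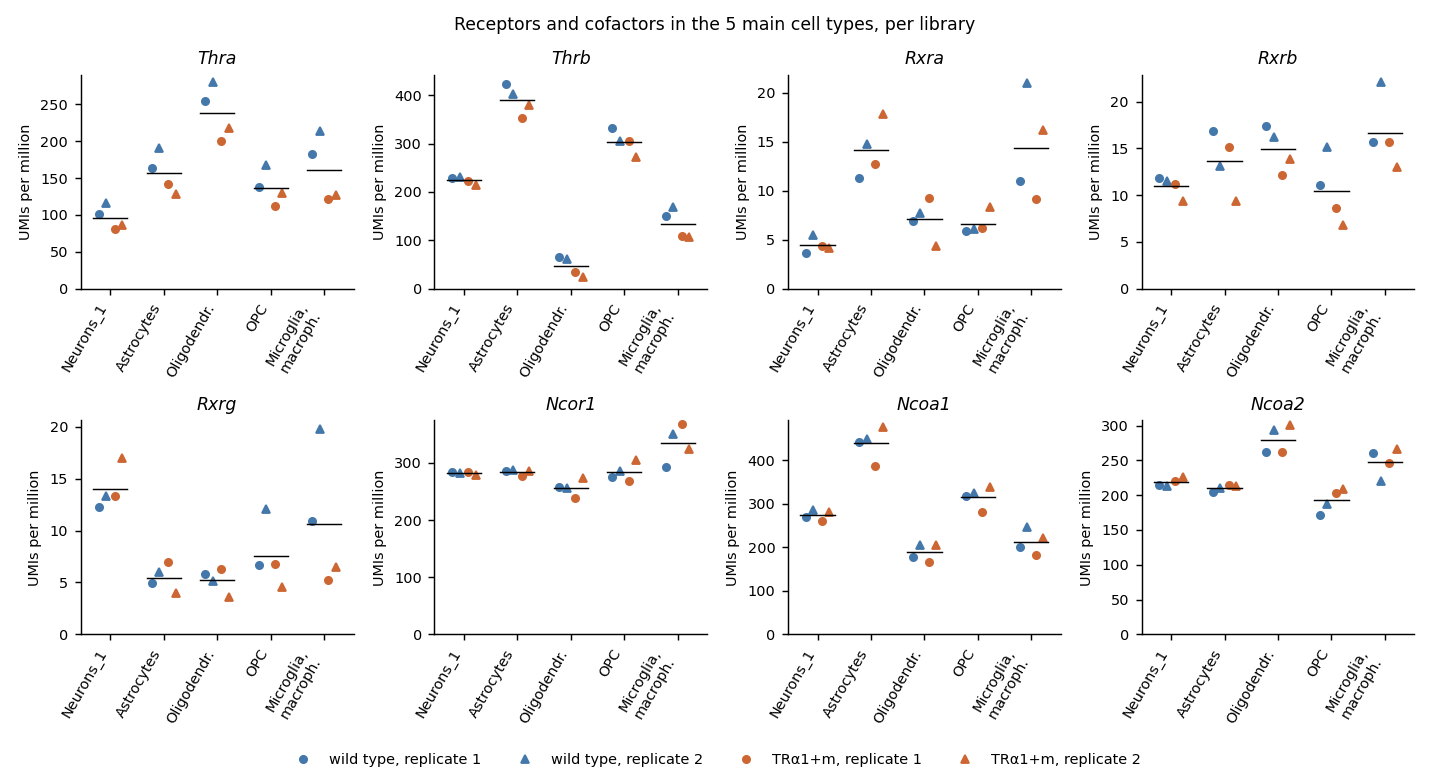
Levels of the 8 genes (vertical axis, CPM) in the 5 main cell types, with 1 point per library, blue for wild type and orange for TRα1+m, circles for replicate 1 and triangles for replicate 2, and a line at the mean of the 4. Oligodendrocytes are highest for Thra (200.3 to 280.5) and lowest for Thrb (23.8 to 65.6), and Ncor1 is nearly level across cell types.

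The RXR genes were sparse. Rxra was at 3.67 to 5.44 CPM in Neurons_1, at 11.2 to 17.8 CPM in astrocytes and at 9.13 to 21 CPM in microglia. It was lower in neurons than in astrocytes by a log2 difference of -1.56 ± 0.17 (adjusted p = 2.63e-08) and lower than in microglia by -1.36 ± 0.27 (adjusted p = 0.000126). In OPC it was at 5.91 to 8.37 CPM and in oligodendrocytes at 4.36 to 9.24 CPM. Rxrg was instead highest in neurons in 3 of 4 libraries. This partner, known from the striatum and pituitary, was at 12.2 to 17 CPM in Neurons_1 and at 3.99 to 6.93 CPM in astrocytes and 3.56 to 6.28 CPM in oligodendrocytes, with log2 differences of 1.46 ± 0.20 and 1.44 ± 0.24 (adjusted p = 1.12e-06 and 1.23e-05). In OPC it was at 4.56 to 12.1 CPM, and in microglia at 11 and 19.8 CPM in WT and 5.22 and 6.48 CPM in TRα1+m, where WT replicate 2 lay above the neurons of its library. Rxrb, which is expressed in most tissues, ranged from 6.85 to 15.1 CPM in OPC to 13 to 22.1 CPM in microglia, and only the pair of neurons and oligodendrocytes differed (-0.41 ± 0.15, adjusted p = 0.0166). Their Rxrb was at 9.32 to 11.8 CPM and 12.2 to 17.4 CPM, which do not overlap, and astrocytes were at 9.39 to 16.8 CPM.

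The cofactors ranged from level to strongly patterned. Ncor1, the corepressor, differed in none of the 10 pairs of cell types, with fitted log2 differences between -0.18 and 0.16 (edgeR); 1 pair, oligodendrocytes and OPC, had an unadjusted p under 0.05. Its CPM ran from 257 ± 14.7 in oligodendrocytes to 334 ± 32.8 in microglia, the highest cell type in every library before the fit scaled for composition, with 282 ± 2.42 in Neurons_1, 284 ± 4.16 in astrocytes and 283 ± 16.2 in OPC. Ncoa1 (SRC-1) was highest in astrocytes, at 441 and 449 CPM in WT and 387 and 476 CPM in TRα1+m, and lowest in oligodendrocytes, at 177 and 206 CPM and 166 and 204 CPM. The log2 difference of astrocytes minus oligodendrocytes was 1.12 ± 0.08 (adjusted p = 4.3e-11), and 9 of 10 pairs differed, all but oligodendrocytes and microglia. OPC (315 ± 23.9 CPM), Neurons_1 (274 ± 10.8 CPM) and microglia (213 ± 28.3 CPM) lay between. Ncoa2 (TIF2) was instead highest in oligodendrocytes in all 4 libraries (261 to 301 CPM) and lowest in OPC in all 4 (171 to 208 CPM). It was at 248 ± 20.3 CPM in microglia, 219 ± 5.49 in Neurons_1 and 211 ± 4.18 in astrocytes. Only the 4 pairs that include oligodendrocytes differed for it, by log2 -0.34 for neurons, -0.51 for astrocytes (each minus oligodendrocytes), and 0.50 and 0.50 for oligodendrocytes minus OPC and microglia.

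The share of all 15583 genes that differed is given per pair beside these counts. The share was 70.5% for neurons and astrocytes, 69.5% for neurons and oligodendrocytes, 52.9% for neurons and OPC, and 64.2% for neurons and microglia. Among glia it was 50.6% for astrocytes and oligodendrocytes, 41.1% for astrocytes and OPC, 40.8% for astrocytes and microglia, 45.4% for oligodendrocytes and OPC, 41.8% for oligodendrocytes and microglia, and 43.1% for OPC and microglia. Thrb and Ncoa1 differed in 9 of 10 pairs, Thra in 7, Rxra in 5, Rxrg and Ncoa2 in 4, Rxrb in 1 and Ncor1 in none. A difference between main cell types was thus common among all genes, from 40.8% to 70.5% per pair. How many of all genes differ in 9 pairs, or in at most 1, is not given here, so the counts of pairs per member have no such share beside them. Rxrb had standard errors of 0.13 to 0.26 on the log2 scale, against 0.08 to 0.09 for Ncoa1 and Ncor1. Small differences of Rxrb were thus less detectable.

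RNA of neurons was present in the glial clusters, and neuronal markers were measured there beside the members. As a percent of its level in Neurons_1 of the same library, the synaptic gene Syt1 stood in oligodendrocytes at 13% and 9.44% in WT and at 14.2% and 6.16% in TRα1+m, and the neuronal splicing factor Rbfox3 at 16% and 20.6% and at 17% and 13.9%. The other 5 of the 7 neuronal markers were higher there, with 34.4% to 57.2% for Snap25, 25% to 75.3% for Slc17a6, 57.2% to 64.6% for Gad2, 71.2% to 124% for Stmn2 and 101% to 108% for Gad1. Over all markers and libraries the range was 5.64% to 97.1% in astrocytes, 6.16% to 124% in oligodendrocytes, 8.41% to 108% in OPC and 8.92% to 142% in microglia, so that markers differed widely and some were as high in glia as in neurons. Thrb in oligodendrocytes stood at 28.6% and 26.3% of its neuronal level in WT and at 15.4% and 11% in TRα1+m. It was above Syt1 and below the 5 higher markers in each library, and above Rbfox3 in both WT but below it in both TRα1+m libraries. Thrb in microglia (49.1% to 73.4%), Ncoa1 in oligodendrocytes (63.4% to 72.6%) and microglia (69.4% to 86.9%), Ncor1 in oligodendrocytes (83.7% to 98.2%) and Rxrg in astrocytes (23.5% to 52.1%), oligodendrocytes (21% to 47.3%) and OPC (26.9% to 90.6%) were likewise below the highest marker in all 4 libraries. Thra and Rxra were above every marker in all 4 libraries in each glial type, as were Thrb and Ncoa1 in astrocytes and OPC. For Thra in microglia the margin was small in TRα1+m replicate 2, at 147% against 142% for Gad1. Summed over the 7 markers, neuronal RNA in oligodendrocytes stood at 33.3% and 29.8% in WT and at 30.4% and 21% in TRα1+m. RNA of other glia was present as well. Summed astrocyte markers stood in oligodendrocytes at 14.5% and 8.78% of their astrocyte level in WT and at 18.2% and 6.59% in TRα1+m. Summed oligodendrocyte markers stood in microglia at 6.75% to 17.6% of their oligodendrocyte level. How much of each level in glia is RNA of neurons or of other glia was not tested.

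**Figure D2:**
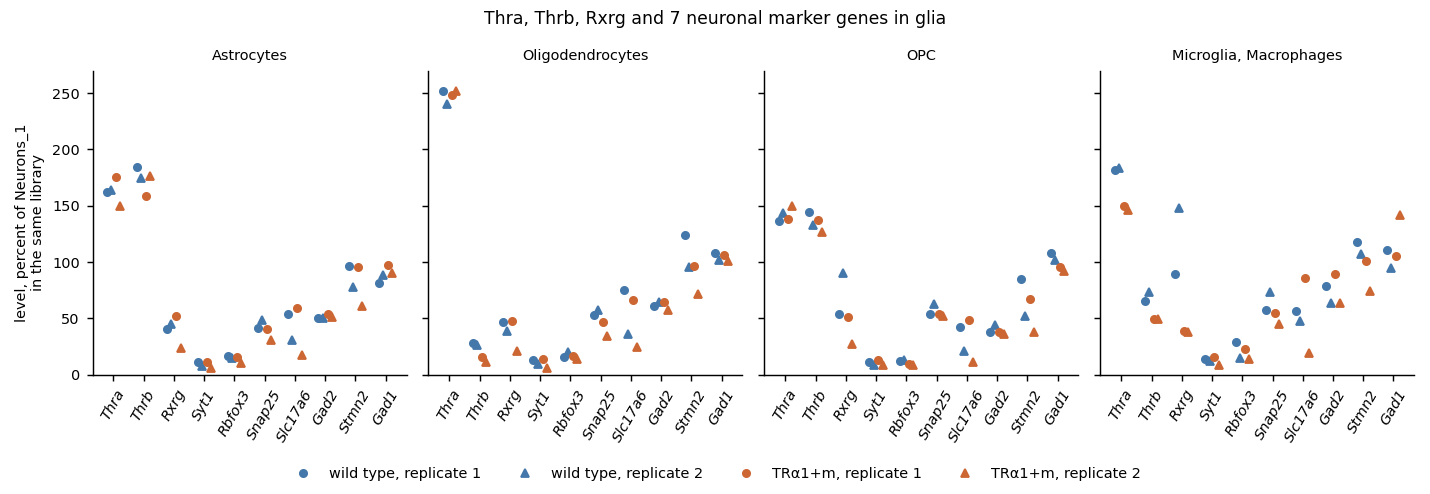
Level in each glial cell type as a percent of Neurons_1 in the same library (vertical axis) for Thra, Thrb, Rxrg and 7 neuronal marker genes, with 1 point per library. Thra lies above every marker in each glial type, and Thrb above them in astrocytes and OPC and between the lowest and the highest marker in oligodendrocytes (11% to 28.6%) and microglia (49.1% to 73.4%).

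Within neurons, Thrb differed between the most sub-clusters of the 8 genes. It was highest in the somatostatin sub-cluster, at 527 and 509 CPM in WT and 545 and 513 CPM in TRα1+m, above every other neuronal sub-cluster in each library. At the other end stood CART_1 (37.3 to 62.5 CPM), the sub-cluster labelled Orexin+ (55.8 to 65.4 CPM), NPY/AgRP (60.2 to 84.1 CPM) and the sub-cluster labelled AVasopressin (61.5 to 98 CPM). These 4 ranges overlap, and all of them lie below the lowest library of any other neuronal sub-cluster tested (153 CPM). CART_2, with 2 to 19 nuclei per library and so not tested, held 0 to 92 CPM. Against the mean of the other sub-clusters, the log2 difference was 1.94 ± 0.08 (adjusted p = 9.52e-28) for somatostatin and -1.72 ± 0.10 (adjusted p = 1.63e-22) for CART_1. POMC and NPY/AgRP neurons, the satiety and hunger neurons of the arcuate nucleus, fell on opposite sides, at 0.81 ± 0.08 (adjusted p = 1.56e-12) and -1.33 ± 0.12 (adjusted p = 1.91e-13). In all, 11 of 12 sub-clusters differed from the mean of the others for Thrb, 7 above and 4 below, the exception being the oxytocin sub-cluster (0.11 ± 0.11, adjusted p = 0.526).

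Thra was nearly level among neurons. Only the MCH sub-cluster differed, at 128 and 199 CPM in WT and 86.4 and 128 CPM in TRα1+m, with a log2 difference of 0.41 ± 0.08 (adjusted p = 1.9e-05). That sub-cluster carries the endothelial RNA described above. Within each genotype, both this RNA and Thra were higher in replicate 2 than in replicate 1. Over all 4 libraries, this RNA was highest in TRα1+m replicate 2 and Thra in WT replicate 2. The part of the endothelial RNA in the Thra level of this sub-cluster was not tested. The libraries of all other neuronal sub-clusters tested lay between 58.1 and 139 CPM.

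**Figure D3:**
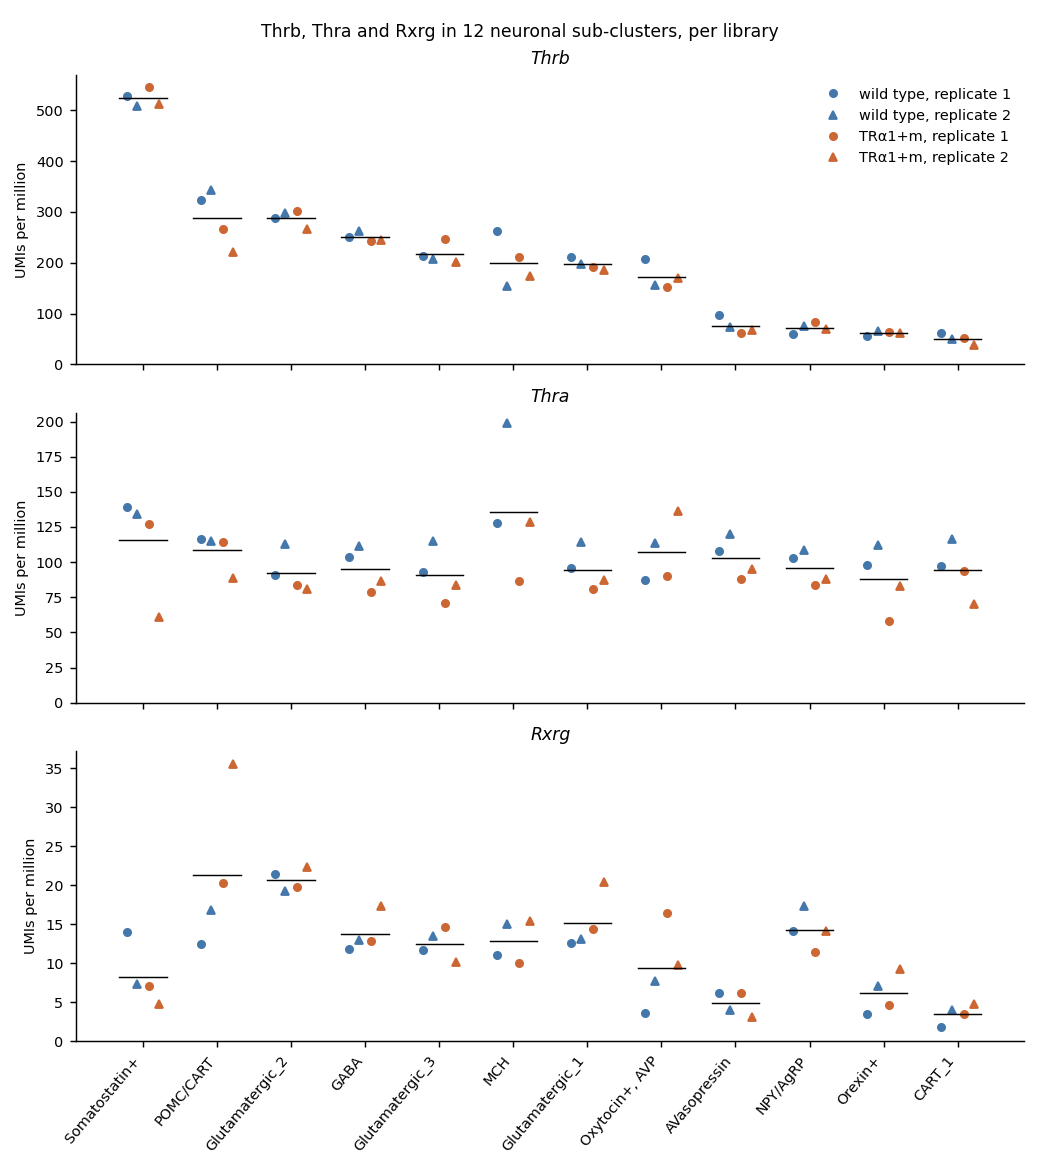
Levels of Thrb, Thra and Rxrg (vertical axes, CPM) in 12 neuronal sub-clusters ordered by mean Thrb, with 1 point per library and a line at the mean. Thrb falls from 523 ± 16.5 in somatostatin to 50.4 ± 10.4 in CART_1, while Thra follows no such order and is highest in MCH.

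Rxrg followed a pattern of its own, with Glutamatergic_2 (19.3 to 22.3 CPM) and POMC (12.5 to 35.5 CPM) at the top and CART_1 (1.77 to 4.73 CPM) and AVasopressin (3.11 to 6.22 CPM) at the bottom. The log2 differences were 1.08 ± 0.11 (adjusted p = 1.62e-12), 0.93 ± 0.21 (adjusted p = 0.000448), -1.62 ± 0.26 (adjusted p = 2.74e-07) and -1.12 ± 0.30 (adjusted p = 0.00183), and 6 of 12 sub-clusters differed. Rxra was above the mean of the others in the MCH and oxytocin sub-clusters, by 1.04 ± 0.27 (adjusted p = 0.000877) and 1.26 ± 0.43 (adjusted p = 0.0278). In MCH it was at 4.53 and 14.5 CPM in WT replicates 1 and 2 and at 4.8 and 9.64 CPM in those of TRα1+m. The endothelial RNA there was also higher in replicate 2 of each genotype, and its part was not tested. The oxytocin value rests on 6 and 5 UMIs in WT and 5 and 2 in TRα1+m. Rxrb was below the mean of the others in the sub-cluster labelled Orexin+ (-1.22 ± 0.41, adjusted p = 0.0177). Ncoa2 was highest there, at 302 to 352 CPM (0.57 ± 0.07, adjusted p = 1.33e-10), and lowest in CART_1 at 172 to 199 CPM (-0.27 ± 0.06, adjusted p = 5.96e-05). Ncoa1 was highest in the oxytocin sub-cluster at 318 to 407 CPM (0.45 ± 0.06, adjusted p = 4.14e-08) and below the mean of the others in POMC (-0.35 ± 0.06, adjusted p = 9.34e-06). Ncor1 was above it in the sub-clusters labelled AVasopressin and CART_1, by 0.23 ± 0.05 (adjusted p = 6.29e-05) and 0.14 ± 0.04 (adjusted p = 0.0111).

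Over all 13134 genes, the share that differed from the mean of the other sub-clusters was 22.7% for somatostatin, 17.5% for POMC, 30.8% for Glutamatergic_2, 22.3% for GABA, 27.7% for Glutamatergic_3 and 27% for Glutamatergic_1. It was 51.4% for MCH, 19.3% for oxytocin, 31.9% for AVasopressin, 19% for NPY/AgRP, 30.5% for the sub-cluster labelled Orexin+ and 37% for CART_1. How many of all genes differ in as many sub-clusters as Thrb or Rxrg is not given here. The counts of sub-clusters per member thus have no such share beside them.

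Tanycytes, the hypothalamic cells of the ventricle wall that handle thyroid hormone, were annotated within the astrocyte cluster with 261 to 425 nuclei per library. Ncoa1 was lower in them than in the other astrocytes, at 229 to 309 CPM against 423 to 499.8 CPM, a log2 difference of -1.03 ± 0.10 (adjusted p = 7.89e-08). Thrb was lower too, at 225 to 387 CPM against 383 to 444 CPM (-0.56 ± 0.10, adjusted p = 0.000325), and Ncor1 was higher, at 338 to 394 CPM against 262 to 275 CPM (0.26 ± 0.09, adjusted p = 0.03). The other 5 genes did not pass, among them Thra at -0.23 ± 0.10 (adjusted p = 0.0968), and 38% of 14160 genes tested differed. The 5 tanycyte markers summed to a mean of 6613 CPM in tanycytes and 1519 CPM in the other astrocytes.

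Between the genotypes, Thra was lower in both TRα1+m libraries than in both WT libraries in each of the 5 main cell types, yet it passed the test across all genes in none. In Neurons_1 the WT means of 109 ± 11.1 CPM stood against 83.5 ± 3.88 CPM in TRα1+m (SD, n = 2 each). In microglia they were 199 ± 22.1 CPM and 124 ± 3.6 CPM, from 183 and 214 CPM in the WT and 121 and 126 CPM in the TRα1+m libraries, so the groups did not overlap. The log2 fold changes of TRα1+m against WT were -0.44 ± 0.12 in Neurons_1, -0.38 ± 0.14 in astrocytes, -0.29 ± 0.17 in oligodendrocytes, -0.37 ± 0.18 in OPC and -0.69 ± 0.23 in microglia, none of which passed, with adjusted p of at least 0.999 (edgeR). That fit leaves out the pairing of libraries by repeat. With the experimental repeat as a block (edgeR), Thra passed in none of them either. Adjusted p was then 0.159 in Neurons_1, 0.113 in astrocytes, 0.426 in oligodendrocytes, 0.458 in OPC and 0.189 in microglia. The unadjusted p in the same order was 0.000196, 0.00247, 0.0642, 0.0155 and 0.00146. Of 9468 genes tested in all 5 cell types, 0.38% had both TRα1+m libraries below both WT libraries in all 5; cell types of a library come from the same mice and are not separate replicates. The fold change was also below 0 in 13 of 14 sub-clusters, from -0.66 in MCH to 0.08 in the oxytocin sub-cluster, as it was in at least 13 for 7.84% of 5610 genes tested in all 14. Nr1d1, which overlaps the end of Thra, had fold changes of 0.07 in Neurons_1, 0.19 in astrocytes, 0.20 in oligodendrocytes, -0.37 in OPC and -0.02 in microglia, which did not pass, and its levels overlapped between the genotypes in all 5 main cell types.

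The largest genotype difference among the members that passed the filter on low counts was that of Thrb in oligodendrocytes. The WT libraries held 65.6 and 60.4 CPM, from 170 and 164 UMIs, and the TRα1+m libraries 34.4 and 23.8 CPM, from 93 and 60 UMIs. The exact Poisson intervals (95%, counting error only) ran from 51.5 to 70.4 CPM for the lower WT library and from 27.7 to 42.1 CPM for the higher TRα1+m library, and did not overlap. The log2 fold change was -1.05 ± 0.24 (adjusted p = 0.323, edgeR), which did not pass. With the experimental repeat as a replicate block the adjusted p was 2.47e-05 (edgeR), and without TRα1+m replicate 1 it was 0.0155; the block called 4.35% of genes in this cell type, leaving out that library 1.49%, and the fit without either 0.103%. The fit without TRα1+m replicate 1 rests on 1 TRα1+m library, the one at 23.8 CPM, so its p-value cannot measure the spread within that genotype. Its log2 fold change was -1.33, against -0.83 without TRα1+m replicate 2. It was -0.96 without WT replicate 1 and -1.13 without WT replicate 2. Thrb passed here under no other alternative, with an adjusted p of 0.537 in DESeq2. Relative to Neurons_1 the genotype effect on Thrb was -0.95 ± 0.23 (adjusted p = 0.271, edgeR), and with the block the adjusted p was 0.0301, where 0.447% of 16121 genes passed against 0.118% without it. As given above, these levels, as percent of neurons, lie between the lowest and the highest neuronal marker in oligodendrocytes. Over the same libraries the 7 neuronal markers summed to 1198 and 1137 CPM in WT and 1104 and 781 CPM in TRα1+m, with 2 of 7 below both WT libraries in both TRα1+m libraries, and the 5 oligodendrocyte markers to 10054 and 18642 CPM and 9087 and 22374 CPM. Astrocyte markers were present there too, as given above. The part of RNA of other cell types in the difference was not tested.

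In the other cell types the difference of Thrb was smaller. Fold changes were -0.13 ± 0.10 in Neurons_1, -0.16 ± 0.13 in astrocytes, -0.18 ± 0.18 in OPC and -0.57 ± 0.22 in microglia on the log2 scale. The groups did not overlap in 4 of 5 main cell types, OPC being the exception, and 1.55% of the genes tested in all 5 were lower in both TRα1+m libraries in at least 4. Rxrb was likewise lower in both TRα1+m libraries in 4 of 5, all but astrocytes, with fold changes from -0.77 in OPC to -0.24 in Neurons_1. In microglia this rests on a small margin, since WT replicate 1 and TRα1+m replicate 1 both rounded to 15.7 CPM. Rxrg in microglia, under the filter and with few UMIs, was given above and did not overlap either. In the other direction, both TRα1+m libraries lay above both WT libraries for Ncoa2 in 3 of 5 main cell types and for Rxra in 1. For Ncor1 they lay below in 1. The share of all genes for these counts is not given here. The coactivator and corepressor genes moved least, with log2 fold changes from -0.16 to 0.02 for Ncoa1, -0.01 to 0.16 for Ncoa2 and -0.07 to 0.10 for Ncor1 over the 5 main cell types. Their standard errors reached 0.24, so that small differences were not detectable in the smaller clusters.

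**Figure D4:**
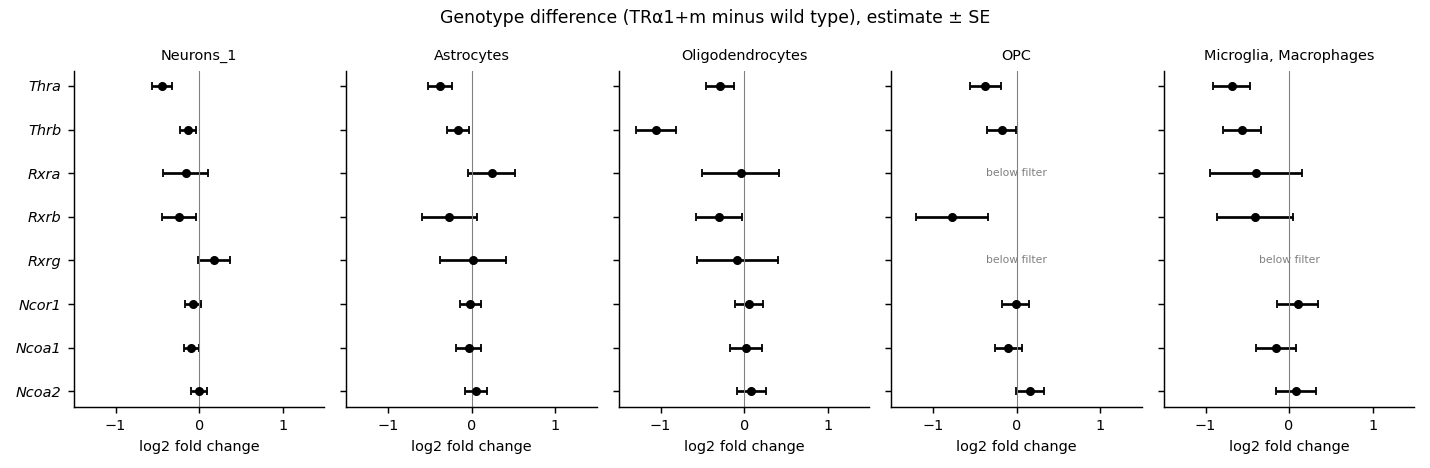
Log2 fold change of TRα1+m against wild type (horizontal axis, points) with its standard error (bars) for each gene in each main cell type, from edgeR. Thra lies below 0 in all 5 panels, Thrb in oligodendrocytes at -1.05, and the cofactors near 0; genes under the filter on low counts carry no point.

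Without the replicate block, no member passed the genotype test in any main cell type or sub-cluster. There were 7 genes tested in microglia, 6 in OPC and 8 in each of the other main cell types. At an unadjusted p under 0.05 there were 5 such results in main cell types, Thra in Neurons_1, astrocytes and microglia and Thrb in oligodendrocytes and microglia, and 4 in sub-clusters; DESeq2 called 0. At that threshold the share of all genes was 0.969% in Neurons_1, 1.72% in astrocytes, 5.32% in oligodendrocytes, 1.64% in OPC, 2.16% in microglia and 1.72% over the sub-clusters. Of the 14 sub-clusters, Rxra and Rxrg passed the filter on low counts in 7, Rxrb in 10 and the other 5 genes in all 14. The share of all genes that passed was 0% in Neurons_1, 0% in astrocytes, 0% in OPC and 0% in microglia, and 0.0031% over 14 sub-clusters together. With the replicate block these shares were 0.01% in Neurons_1, 1.28% in astrocytes, 0.569% in OPC, 0.335% in microglia and 0.54% over the sub-clusters. In the blocked fit there were 3 calls of a member in a sub-cluster (edgeR). Thra was lower in GABA neurons, at 104 and 112 CPM in WT and 78.8 and 86.5 CPM in TRα1+m (-0.44 ± 0.08, adjusted p = 0.00234), and in the MCH sub-cluster, at 128 and 199 CPM in WT and 86.4 and 128 CPM in TRα1+m (-0.64 ± 0.17, adjusted p = 0.0388), where WT replicate 1 and TRα1+m replicate 2 were at nearly the same level. Thrb was lower in POMC neurons, at 323 and 344 CPM in WT and 267 and 222 CPM in TRα1+m (-0.49 ± 0.13, adjusted p = 0.0377). The effect differed from that in Neurons_1 for no member in any other cell type, where 0% of genes passed in astrocytes, 0% in OPC and 0% in microglia.

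The experimental repeats, which hold a library of each genotype, separated many genes, and no member passed; Rxrb in astrocytes alone had an unadjusted p under 0.05. The share of genes that differed between repeats was 25.2% in Neurons_1, 20.6% in astrocytes, 12.4% in oligodendrocytes, 11.4% in OPC and 6.27% in microglia (edgeR). The smallest adjusted p of a member was 0.0766, for Rxrb in astrocytes, at 16.8 and 15.2 CPM in the libraries of repeat 1 and 13.1 and 9.39 CPM in those of repeat 2. Within each repeat, Thra was lower in TRα1+m in all 5 main cell types, as the order of the 4 libraries given above implies.

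Other genes of the pathway came from fixed lists, 16 further coregulators and 13 further partners of RXR. Between genotypes, 0 of 16 coregulators and 0 of 13 partners passed in any main cell type by edgeR, where 16 coregulators and between 5 and 13 partners were tested; at an unadjusted p under 0.05 there was 1 of each list in oligodendrocytes and none in the other main cell types. Between cell types, 3 to 11 of 16 coregulators and 2 to 7 of the 10 partners tested differed, depending on the pair, where 40.8% to 70.5% of all genes did. For neurons and astrocytes it was 11 of 16 and 7 of 10, against 70.5% of all genes, and for astrocytes and OPC 3 of 16 and 5 of 10, against 41.1%. These counts are not read as a result about the lists. The 3 coregulators with the widest range were all highest in microglia by CPM, before the fit scaled for composition, as were most of the 16 listed. Nrip1 (RIP140), which represses nuclear receptors, was at 236 ± 28.2 CPM in microglia and 41 ± 4.4 CPM in neurons, and Ncoa3 (SRC-3), the third p160 coactivator, at 186 ± 36.2 CPM in microglia and 40.8 ± 5.73 CPM in astrocytes. Tbl1xr1, a subunit of the NCOR complex, was at 210.4 ± 38.4 CPM in microglia and 55.7 ± 6.94 CPM in neurons. In the fit, its level in microglia was not resolved from that in the other glia. The log2 differences were -0.23 ± 0.11 for astrocytes, -0.03 ± 0.11 for oligodendrocytes and 0.0005 ± 0.11 for OPC, each minus microglia (adjusted p = 0.0953, 0.874 and 0.999, edgeR). Among the partners, the widest ranges were those of Ppara, a receptor for fatty acids, with 49.9 ± 12 CPM in astrocytes and 1.04 ± 0.567 CPM in neurons, and of the retinoic acid receptors Rarb, with 52 ± 4.61 CPM in astrocytes and 5.68 ± 1.86 CPM in oligodendrocytes, and Rarg, with 15 ± 4.37 and 1.04 ± 0.475 CPM in the same pair. Oligodendrocytes were thus lowest for Rarb and Rarg as for Thrb, with log2 differences of astrocytes minus oligodendrocytes of 3.10 ± 0.21 and 3.71 ± 0.28 (adjusted p = 1.47e-11 and 8.05e-11, edgeR).

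The genes whose levels most resembled those of each member were found over 18 cell types, 12 neuronal sub-clusters and 6 others, among 10785 genes with a mean of at least 10 CPM, by Pearson r of mean log2(CPM + 1). The 6 others include the non-neuronal cluster, whose nuclei may be doublets. Cell types share their libraries, and these r values are descriptions. By Spearman's rank correlation none of the 3 genes was the same for Thra, Rxra and Rxrb, 1 was for Thrb, Ncor1, Ncoa1 and Ncoa2, and 2 were for Rxrg. For Thra the closest were Cnp (0.97), Sypl (0.97), Cryab (0.97), of which Cnp is a myelin enzyme and Cryab a chaperone of oligodendrocytes, and by rank they were Skap2, Nkx6-2, Anp32b. For Thrb they were Gm48321 (0.96), Fam49a (0.79), Pip4p2 (0.79); Gm48321 is the antisense gene within Thrb named above. For the partners they were Pdia4 (0.89), H2-K1 (0.89), Polr2m (0.89) with Rxra, Sdhaf4 (0.89), Czib (0.87), Mrpl51 (0.86) with Rxrb and Pnck (0.89), Gucy1b1 (0.88), Tmem158 (0.87) with Rxrg. For the cofactors they were Cwf19l2 (0.84), Zup1 (0.81), Nup153 (0.81) with Ncor1, Frmpd1 (0.90), Fry (0.88), Hdhd5 (0.86) with Ncoa1 and Atp8a1 (0.84), Atp11a (0.78), Lrig2 (0.78) with Ncoa2. Among the members themselves, Thra and Thrb had no linear relation over the 18 cell types (r = 0.01). Thra went with Rxra (r = 0.64) and Rxrb (r = 0.55) and against Rxrg (r = -0.51), and Rxra went with Rxrb (r = 0.64). Ncoa1 and Ncoa2 had r = -0.18. For Thra and Rxrg, r was 0.11 over the 12 neuronal sub-clusters, so the opposed order was not seen among neurons. Over the 12 neuronal sub-clusters alone, Thrb went with Rxrg (r = 0.62) and against Ncor1 (r = -0.62), while Rxra went with Ncoa1 (r = 0.76). Rxra rests there on few UMIs, with 0 to 2 per library in the sub-cluster labelled Orexin+ and 2 to 6 in the oxytocin sub-cluster. Its level in the MCH sub-cluster comes with the endothelial RNA given above. Over the 18 cell types Rxra and Rxrg averaged 6.66 and 9.76 CPM, under the 10 CPM asked of the compared genes.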

How the data were processed

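Per the labels and the methods of the study, nuclei were captured with 10x Genomics v3.1 chemistry, and the authors aligned reads to mm10 (GRCm38), counted UMIs with Cell Ranger 5.0.1, introns included, and clustered nuclei in Seurat after removing nuclei of low quality and those that scrublet scored as likely doublets; no doublet caller was run again here. The deposited matrices hold raw UMI counts, and the deposited annotation gives the cluster of each kept nucleus; it was used as deposited. Counts were summed here per library and cluster, leaving out clusters that had under 10 nuclei in some library. The non-neuronal cluster was not tested either, but entered the search for similar genes and the correlations of members. Genotypes, cell types (library as block), sub-clusters, repeats and interactions were tested in edgeR 4.0.16 (R 4.3.3) with filterByExpr, TMM and two-sided quasi-likelihood tests over all genes, with Benjamini-Hochberg adjustment at 0.05. Each cluster's depth sets the precision, from 392 microglial to 10619 neuronal nuclei per library. The study made a library of each genotype in each repeat, and repeat differences correlated between the genotypes (Pearson r 0.39 to 0.66 over genes), so the numbers pair the libraries. The fit without the replicate block was kept as the main version and leaves this pairing out. Calls of members that differ with the block are given beside it. Alternatives were RLE factors, DESeq2 1.42.0, a bias-adjusted fit, no filter, the block, each library left out, equal nuclei, WT libraries only, other level scales and rank correlation. Scripts were tested on simulated data. Named were all members, the genes of 2 lists that passed the genotype test or otherwise the 3 per list with the widest range, and the 3 most similar genes per member. Members and lists were chosen with earlier results of these data known. The reference sequences come from GENCODE vM21.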

Additional observations from a re-analysis of the deposited data

How the results depend on the processing

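The fold changes of Thra and Thrb between genotypes kept their direction in all 5 main cell types under every alternative, and 98 of 100 such values also kept their side of the threshold, the exceptions being Thrb in oligodendrocytes with the replicate block and without TRα1+m replicate 1. Members that passed between genotypes rose from 0 to 1 in oligodendrocytes and from 0 to 3 over the sub-clusters with the replicate block, and members whose effect differed from Neurons_1 from 0 to 1; leaving out a library gave 0 to 1 in oligodendrocytes. The paired analysis changed no other call of a member. Over all genes, the block gave 2, 190, 550, 64 and 35 calls in Neurons_1, astrocytes, oligodendrocytes, OPC and microglia, against 0, 0, 13, 0 and 0 without it. DESeq2 gave 1, 1, 74 and 1 in the first 4, and dropping the filter 1, 120, 11 and 9 in the last 4. Leaving out a library gave 0 to 196 in oligodendrocytes (0 without WT replicate 2, 196 without TRα1+m replicate 1), 1 to 8 in OPC and 0 to 72 in microglia, most without TRα1+m replicate 2 in OPC and replicate 1 in microglia. Between cell types, pairs that differed went from 5 to 3 for Rxra in WT libraries only, from 1 to 0 for Rxrb, from 0 to 1 for Ncor1 and from 4 to 7 for Ncoa2 without the filter. Leaving out a library gave 0 to 1 for Rxrb, 2 to 4 for Rxrg and 0 to 2 for Ncor1, the extremes without TRα1+m replicate 2, and without WT replicate 1 also for Rxrg. In WT libraries only, neuronal sub-clusters that differed went from 2 to 1 for Rxra, 1 to 0 for Rxrb, 6 to 3 for Rxrg, 2 to 1 for Ncor1, 5 to 2 for Ncoa1 and 7 to 4 for Ncoa2, and Ncoa1 in the MCH sub-cluster reversed to -0.051. These fits hold fewer libraries; the cause of the other changes was not tested. By rank correlation 0 of the 3 most similar genes were kept for Thra, Rxra and Rxrb, and 1 or 2 for the others. Of 120 recomputed mean levels, 12 moved by more than the SD between libraries. Where a library was left out, the lone one of its genotype was taken to have the spread of the other pair. Low counts limit the RXR genes most.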

Other observations

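The clusters outside the tests also held the receptors. In the 852 Neurons_2 nuclei of TRα1+m replicate 2, Thra was at 113 CPM (95% exact Poisson interval 101 to 127) and Thrb at 29.5 CPM (95% exact Poisson interval 23.5 to 36.6), where the intervals cover counting error only and no other library held more than 6 such nuclei. In Neurons_1 of that library Thrb was at 215 CPM. In the non-neuronal cluster, which the study did not analyse further because its nuclei may be doublets, Thra was at 196 and 184 CPM in the WT and 149 and 211 CPM in the TRα1+m libraries, and Thrb at 245 and 252 CPM and 236 and 211 CPM. Rxrg was listed there at 0 UMIs in 3 of 4 libraries. The upper ends of their 95% exact Poisson intervals were 20.1 and 25.1 CPM in WT and 32.4 CPM in TRα1+m replicate 2. These lie above the 12.2 to 17 CPM of Neurons_1, so the counts of 0 do not show a lower level.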
